A study of Homo sapiens with 14 samples.

Results

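RNA polymerase II (RNAPII) was measured over the nuclear genes for the proteins of the mitochondrial ribosome. Their symbols are MRPL, named for the large subunit, or MRPS, named for the small subunit, followed by a number. Of the 77 protein-coding genes of that naming in RefSeq, 59 were found in the deposited table, among its 12411 nuclear genes. They comprised 39 MRPL and 20 MRPS genes, and the other 18 had no row that matched by position and were not analysed in the main results. All 59 passed the filter on low values in every comparison. The cells were BJ hTERT, human foreskin fibroblasts immortalised with telomerase, and the assay was chromatin immunoprecipitation followed by sequencing (ChIP-seq). There were 14 libraries, 1 for each group. With each of 2 antibodies, cells given an ATR inhibitor (ATRi) were sampled at 16, 19 and 22 h, cells given DMSO, the vehicle, at the same hours, and cells with no treatment named at 14 h. One antibody was raised against RNAPII whose tail is phosphorylated on serine 2 (Ser2) and the other against the amino-terminal part of the largest RNAPII subunit (total). All groups share the same telomerase-immortalised line, and the inhibitor and the zero point of the hours are not given in the sources used here.

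The mitochondrial ribosome makes the few proteins encoded by mitochondrial DNA, all of them membrane subunits of the respiratory chain and ATP synthase. Its proteins are encoded in the nucleus, made in the cytosol and imported, some of them descended from bacterial ribosomal proteins and others particular to mitochondria. The nuclear respiratory factor NRF1, ETS-family factors such as GABPA, and YY1 are known to act at promoters of many nuclear genes for mitochondrial proteins. ATR is the kinase that answers replication stress, and the series title places the study in S phase. Serine 2 phosphorylation accompanies transcript elongation and builds up along the gene body.

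The libraries held 17181179 to 62368915 reads, and the median member 125 to 906 reads in a library. The lowest count for any member in any library was 27 reads. The unit is RPM, reads scaled to the size of the library, summed over a gene's whole span. The share of reads that fell in nuclear genes was 63.5 to 72.0% in the 4 libraries of 19 h and 35.8 to 57.4% in the other 10. Changes are therefore given relative to the median gene of each library, and levels that are compared between libraries are RPM per kb scaled to that median gene. Identity of the cells was checked with marker genes: 10 of 10 fibroblast markers were in the table and summed to 753 to 2055 RPM in Ser2 and 951 to 2283 RPM in total RNAPII. Of the markers of other cells, 1 of 5 for keratinocytes (KRT14, 0.364 to 1.18 RPM in Ser2 and 0.236 to 0.905 in total), 1 of 3 for endothelium, 1 of 4 for melanocytes and 0 of 3 for blood were listed. The endothelial marker VWF had 28.4 to 50.5 RPM in Ser2 and 15.2 to 49.0 in total, and the melanocyte marker MITF 52.3 to 75.5 and 36.5 to 72.3. Their part in the results was not tested.

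The promoters of 5 members are shown because these genes carry the results below. MRPL52 had the largest increase of Ser2 RNAPII at 19 h, and MRPS9 the largest decrease, among members whose deposited start lay within 100 bp of the RefSeq start. MRPS16 and MRPS31 were the most extreme of such members for Ser2 against total RNAPII, and MRPL46 shares its promoter with MRPS11, so that 2 ribosomal proteins are read outward from 1 region. The windows run from 250 bases before to 50 bases after the start of the RefSeq gene (RefSeq, GRCh38.p14), 5′ to 3′ on the gene's strand. They are chr14:22829637-22829936 (plus) for MRPL52, chr2:105037819-105038118 (plus) for MRPS9, chr13:40771141-40771440 (minus) for MRPS31, chr10:73252595-73252894 (minus) for MRPS16 and chr15:88467339-88467638 (minus) for MRPL46. Capitals mark matches, on either strand, to the ETS core CCGGAAG, the YY1 core ATGGCGGC or the NRF1 core GCATGCGC.
MRPL52: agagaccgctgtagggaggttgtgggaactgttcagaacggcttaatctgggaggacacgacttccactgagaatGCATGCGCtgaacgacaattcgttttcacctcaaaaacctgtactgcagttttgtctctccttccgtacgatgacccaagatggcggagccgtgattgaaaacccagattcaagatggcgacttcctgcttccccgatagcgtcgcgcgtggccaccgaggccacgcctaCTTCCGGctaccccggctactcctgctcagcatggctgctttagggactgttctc
MRPS9: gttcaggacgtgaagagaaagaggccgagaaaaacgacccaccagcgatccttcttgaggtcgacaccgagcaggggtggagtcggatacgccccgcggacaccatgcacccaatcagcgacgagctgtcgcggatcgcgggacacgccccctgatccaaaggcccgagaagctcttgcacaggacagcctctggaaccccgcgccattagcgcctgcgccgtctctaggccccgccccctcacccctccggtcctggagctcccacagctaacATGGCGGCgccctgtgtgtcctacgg
MRPS31: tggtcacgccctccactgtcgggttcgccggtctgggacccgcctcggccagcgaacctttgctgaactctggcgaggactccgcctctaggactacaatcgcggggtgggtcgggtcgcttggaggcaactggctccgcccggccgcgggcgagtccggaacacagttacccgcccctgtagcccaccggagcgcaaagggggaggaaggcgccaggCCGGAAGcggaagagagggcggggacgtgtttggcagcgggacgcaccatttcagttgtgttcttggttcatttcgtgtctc
MRPS16: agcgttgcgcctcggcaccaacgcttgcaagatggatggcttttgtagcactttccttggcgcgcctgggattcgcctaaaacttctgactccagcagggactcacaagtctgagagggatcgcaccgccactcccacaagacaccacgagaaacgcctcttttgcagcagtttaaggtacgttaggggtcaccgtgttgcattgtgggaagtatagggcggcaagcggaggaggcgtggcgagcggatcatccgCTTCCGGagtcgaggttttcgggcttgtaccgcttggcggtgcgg
MRPL46: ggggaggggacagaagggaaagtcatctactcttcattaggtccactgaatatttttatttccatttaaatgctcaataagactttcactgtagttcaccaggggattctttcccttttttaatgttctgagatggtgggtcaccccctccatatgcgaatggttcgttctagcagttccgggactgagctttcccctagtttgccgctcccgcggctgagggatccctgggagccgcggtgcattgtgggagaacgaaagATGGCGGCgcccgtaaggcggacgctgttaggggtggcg

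MRPL52 had an NRF1 core upstream and an ETS core, read on the opposite strand, across its start. MRPS31 had 1 ETS core just upstream of the start and MRPS16 1 on the opposite strand just downstream of it. MRPS9 and MRPL46 each had 1 YY1 core just downstream of the start.
A promoter window was at hand for 52 members and for 8600 named genes of the table in all. The ETS core was present in 23 of the 52 members (44.2%), compared with 20.3% of all genes. The YY1 core was present in 14 members (26.9%), compared with 6.79% of all genes, and the NRF1 core in 3 (5.77%), compared with 5.81%. Cytosolic ribosomal protein genes had the ETS core in 33.9% of 56 windows and the YY1 core in 7.14%. In nuclear genes for respiratory chain subunits these shares were 29.3% and 24.4% of 41 windows. The NRF1 core was present in 14.6% of the respiratory chain windows and in 3.57% of the cytosolic ribosomal protein windows. The SP/KLF box GGGCGG (63.5% of members and 71.5% of all genes), the CCAAT box (26.9% and 36.6%) and the E-box CACGTG (5.77% and 10.3%) were less frequent in members than in all genes. No marked core overlapped another in the printed windows. A match describes the letters of a window and says nothing on binding.

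**Figure D1:**
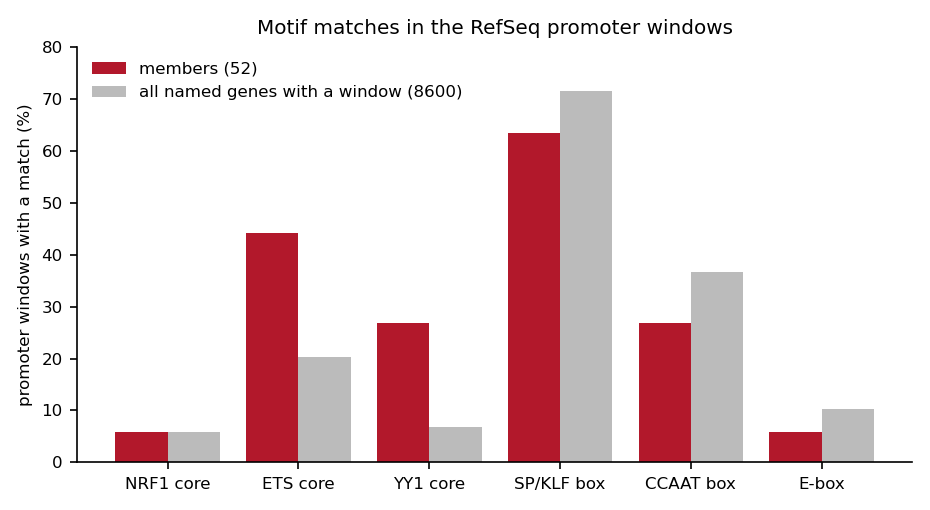
Bars give the share of promoter windows (%) with at least 1 match on either strand to each of 6 motifs, for 52 members (red) and for all 8600 named genes with a window (grey). The ETS core (44.2% against 20.3%) and the YY1 core (26.9% against 6.79%) stand above the share of all genes, and the NRF1 core (5.77% against 5.81%) does not.

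Position and spacing of the genes are given as a description. The start of 10 of the 59 members (16.9%) lay within 1000 bp of the start of a gene read the other way, compared with 9.40% of all nuclear genes. These pairs included MRPL47 with NDUFB5, a subunit of complex I (36 bp), MRPL18 with TCP1, a chaperonin subunit (63 bp), MRPL27 with EME1 (6 bp), MRPL21 with IGHMBP2 (7 bp) and MRPL46 with MRPS11 (34 bp). The median member spanned 11.1 kb, and the median nuclear gene 30.1 kb. The shortest was MRPS34 (1266 bp), for a mitochondria-specific small-subunit protein, and the longest MRPS28 (111573 bp). For 11 members (18.6%, compared with 23.1% of all nuclear genes) at least 5% of the span was shared with another row, so their reads cannot be assigned to them alone. MRPL2, MRPL34, MRPL40 and MRPL49 shared all of their span, and MRPL53 shared 97.9% with CCDC142.

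Members carried more RNAPII per kb than the median nuclear gene and far less than cytosolic ribosomal protein genes. The median member had 0.870 RPM per kb in Ser2 and 1.18 in total RNAPII, each averaged over 7 libraries. The medians were 0.650 and 0.840 RPM per kb for all nuclear genes, 3.33 and 5.00 for 69 cytosolic ribosomal protein genes, and 0.775 and 1.13 for 51 respiratory chain genes. The members were not an even set. The highest was MRPL53, with 9.85 RPM per kb in Ser2 (4.84 to 16.7 over the 7 libraries) and 14.7 in total RNAPII (9.08 to 20.7). MRPL51 followed with 5.34 (2.95 to 10.0) and 10.9 (6.53 to 16.4), although 24.8% of its span lies within NCAPD2, a condensin subunit gene. MRPL40 (2.95 and 5.39 RPM per kb), MRPL57 (2.66 and 4.91) and MRPL24 (2.69 and 3.71) completed the top 5. Of these, MRPL24 and MRPL57 shared no part of their span with another row. The lowest were MRPL23, for a protein at the exit of the peptide tunnel, with 0.276 RPM per kb in Ser2 (0.183 to 0.422) and 0.379 in total (0.214 to 0.564), and MRPS9, with 0.367 (0.328 to 0.394) and 0.387 (0.358 to 0.430). MRPL48 (0.386 and 0.396 RPM per kb), MRPS31 (0.400 and 0.416) and MRPL1 (0.434 and 0.479) stood next. The row used for MRPL23 spans 37245 bp and overlaps the RefSeq gene by a Jaccard index of 0.55, so part of that span lies outside the RefSeq gene. MRPL53 (0.51), MRPL43 (0.54), MRPS30 (0.57), MRPL37 (0.61), MRPL44 (0.61), MRPL51 (0.70) and MRPL24 (0.79) also rest on rows that cover the RefSeq gene only in part or reach beyond it.

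**Figure D2:**
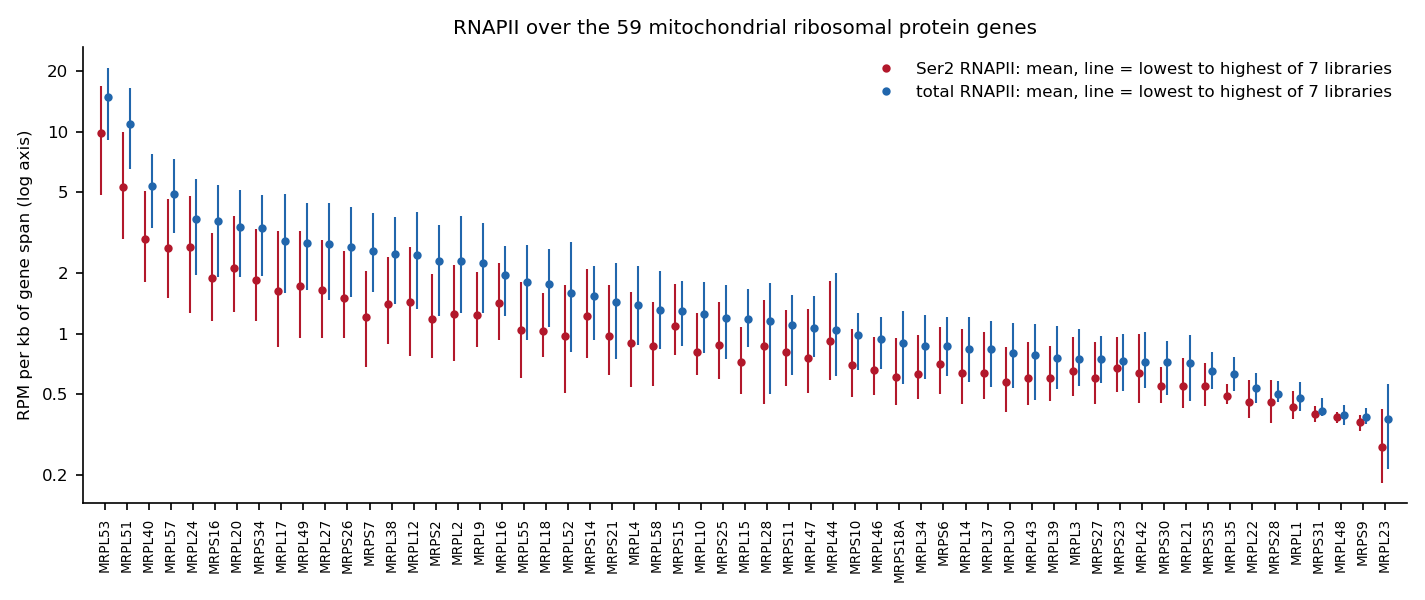
RPM per kb of gene span (log axis) for each of the 59 members, ordered by total RNAPII, with Ser2 in red and total in blue; points are means and lines run from the lowest to the highest of 7 libraries. MRPL53 and MRPL51 lead in both antibodies, MRPL23 and MRPS9 are lowest in both, and the 5 lowest genes by total RNAPII include MRPL48, MRPS31 and MRPL1.

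The comparison of ATRi with DMSO asked whether the members gained or lost RNAPII when ATR was inhibited. With limma over the 3 hours, 0 of 59 members passed the adjusted p threshold of 0.05 in Ser2 RNAPII and 0 of 59 in total RNAPII. The same held for all genes, of which 0% were called in Ser2 (11989 tested), 0% in total (12031) and 0% in the difference between the antibodies (12013), in either direction. edgeR also called 0 members in each. At an unadjusted p below 0.05, limma listed 2 members in Ser2, both higher with ATRi, 0 in total and 0 in the difference. Among all genes it listed 632 higher and 786 lower in Ser2. In total it listed 35 and 31, and in the difference 21 and 11. On the deposited scale 12 members were higher and 0 lower in Ser2 at that unadjusted p, with 0 passing the adjusted threshold. On that scale 2630 of 11989 genes were higher and 25 lower at the same unadjusted p. Leaving out an hour moved the Ser2 calls among all genes to 18 higher and 48 lower without 16 h and to 170 higher and 35 lower without 19 h, with 0 members called in either case. The median member differed from the median gene by 0.02 in Ser2 and -0.0005 in total RNAPII (log2). Since 3 pairs of single libraries carry each test, the p-values rest on how far these pairs scatter and not on replicate cultures.

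MRPL49, for a mitochondria-specific large-subunit protein, had scaled Ser2 levels of 1.67, 2.46 and 1.81 RPM per kb with ATRi at 16, 19 and 22 h, against 1.39, 2.30 and 1.41 with DMSO. The level with ATRi was the higher at each hour, but the hours differed more than the treatments and the groups overlapped. The mean difference was 0.22 ± 0.09 (log2, moderated SE, n = 3 pairs), with a limma adjusted p of 0.363. MRPL49 was also above the median gene at each hour in total RNAPII (0.12, 0.04 and 0.26 in log2). Its whole span is shared with FAU, which encodes a cytosolic ribosomal protein fused to a ubiquitin-like protein, and SYVN1, a ubiquitin ligase gene. MRPL20, for a bacterial-type large-subunit protein, had scaled Ser2 levels of 2.06, 2.90 and 2.29 with ATRi, against 1.97, 2.76 and 1.63 RPM per kb with DMSO. Only the 22 h pair lay far apart, and the mean difference was 0.19 ± 0.09 (log2, limma adjusted p = 0.416, n = 3 pairs, higher in 3 of 3).

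In Ser2 RNAPII 9 members were above the median gene with ATRi at all 3 hours (MRPL2, MRPL20, MRPL28, MRPL38, MRPL40, MRPL49, MRPL52, MRPS2 and MRPS34), where 16% of all genes were. Another 5 were below it at all 3 hours (MRPL1, MRPL22, MRPL48, MRPS28 and MRPS31), where 16.9% of all genes were. In total RNAPII 4 members were above at each hour (MRPL4, MRPL10, MRPL49 and MRPS14; 8.27% of all genes), and 4 below (MRPL14, MRPL39, MRPL44 and MRPL58; 6.89% of all genes). MRPL58 encodes a peptidyl-tRNA hydrolase that is built into the large subunit. MRPL49 was the only member on the same side at every hour with both antibodies, and no member moved one way in Ser2 and the other way in total at every hour. The shares in each direction were near or below those of all genes.

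The hourly medians showed how much the pairs of libraries differed. Relative to the median gene, the median member was at 0.0011, 0.06 and -0.0045 (log2, ATRi minus DMSO) at 16, 19 and 22 h in Ser2, and at -0.10, 0.01 and 0.13 in total RNAPII. With total RNAPII 16, 31 and 36 of 59 members were above the median gene at the 3 hours, so the list changed side between 16 and 22 h. Over the same hours cytosolic ribosomal protein genes stood at -0.27, 0.01 and 0.38 in total RNAPII. At 22 h the share of total RNAPII reads in nuclear genes was 57.4% with ATRi, against 42.8% with DMSO; the part of this in the 22 h values was not tested. MRPL12, the stalk protein that also binds the mitochondrial RNA polymerase, differed by -0.37, 0.09 and 0.38 in Ser2 and by -0.25, -0.05 and 0.13 in total RNAPII. Among members with 1 sign at all 3 hours, the ATRi difference in Ser2 exceeded that in total RNAPII most in MRPL28, by 0.18 ± 0.16 (log2, limma adjusted p = 1, n = 3 pairs, higher in 3 of 3).

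**Figure D3:**
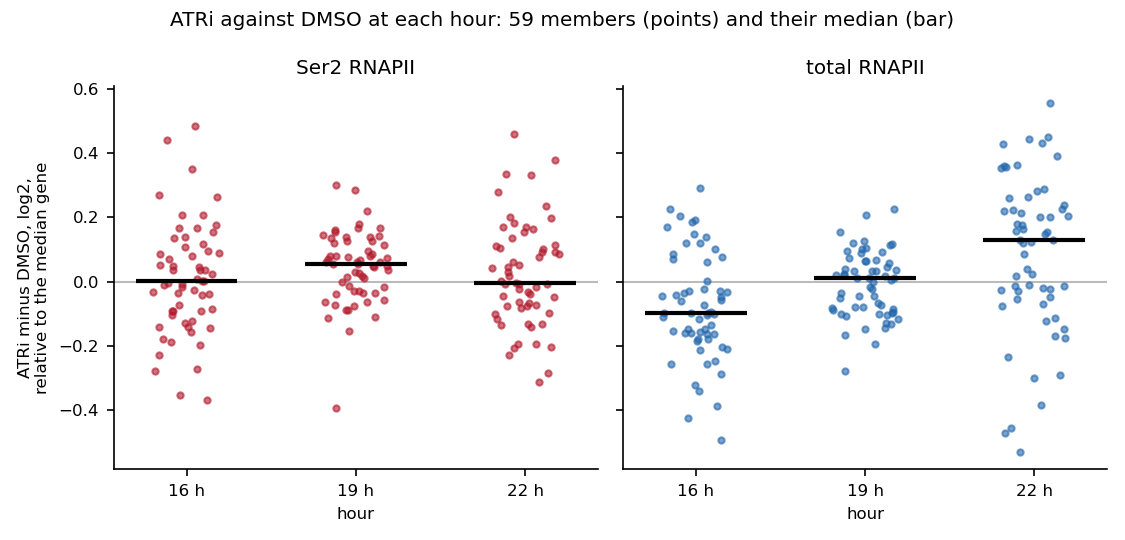
Each point is 1 member and gives its log2 difference between the ATRi and the DMSO library of an hour, relative to the median gene; bars are medians over the 59 members. In Ser2 (left) the medians lie at 0.0011, 0.06 and -0.0045, and in total RNAPII (right) at -0.10, 0.01 and 0.13.

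The hours were compared to see how RNAPII on these genes moved over time, with the ATRi and DMSO libraries of an hour standing in for replicates. In Ser2 RNAPII, 23 of 59 members were higher at 19 h than at 16 h and 9 were lower (limma, adjusted p below 0.05), where 35.4% of all genes were called higher and 31.4% lower. At 22 h 6 members were higher than at 19 h (24.2% of all genes) and 15 lower (27.7% of all genes). The median gene itself moved by 0.90 at 19 h and -0.68 at 22 h in Ser2 and by 0.54 and -0.62 in total RNAPII on the deposited scale (log2). Without centring on it, 55 members were higher and 0 lower at 19 h in Ser2, and 0 were higher and 55 lower at 22 h. Of 11989 genes 10294 were then higher and 680 lower at 19 h, and 601 higher and 10104 lower at 22 h. Leaving out 1 library left 5 to 9 members lower at 19 h in Ser2, with 5 without the DMSO library of 19 h. It left 3 to 5 higher and 5 to 10 lower at 22 h, with 3 and 6 without the DMSO library of 19 h and 5 lower without the DMSO library of 22 h. Of all genes these fits called 2933 to 3442 lower at 19 h in Ser2. At 22 h they called 1997 to 2650 genes higher and 1502 to 2727 lower. In total RNAPII 2 members were higher at 19 h than at 16 h (3.75% of all genes) and 0 lower (6.35%), and at 22 h 0 were higher than at 19 h (5.83%) and 1 lower (1.17%). At an unadjusted p below 0.05 limma gave 8 members higher and 0 lower at 19 h, and 2 higher and 9 lower at 22 h, in total RNAPII. Of 12031 genes it gave 1869 higher and 1824 lower at 19 h, and 1902 and 1681 at 22 h. Without centring, 22 members were higher and 0 lower at 19 h and 0 higher and 44 lower at 22 h. Of 12031 genes 4791 were then higher and 283 lower at 19 h, and 295 higher and 6812 lower at 22 h. Without the ATRi library of 22 h, 6 members were called higher and 21 lower at 22 h in total RNAPII, where 2596 and 2911 of 12028 genes were.

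MRPL24 (chromosome 1, 156737303 to 156741590, minus strand, hg38), for a bacterial-type large-subunit protein, had the largest increase in Ser2. Its scaled Ser2 level was 2.24 RPM per kb at 14 h, then 2.35, 3.53 and 3.06 at 16, 19 and 22 h with ATRi and 1.84, 3.83 and 2.72 with DMSO. Both libraries of 19 h stood above the other 5, and the change at 19 h was 0.75 ± 0.11 (log2, limma adjusted p = 3.38e-06). In total RNAPII the same gene had 3.45, 3.32 and 3.45 RPM per kb with ATRi and 2.81, 3.81 and 2.60 with DMSO, and the hours overlapped. MRPL51 rose by 0.69 ± 0.11, with 4.26, 7.63 and 5.21 RPM per kb in Ser2 with ATRi and 4.30, 6.99 and 5.50 with DMSO. MRPL53 rose by 0.61 ± 0.11 in Ser2 at 19 h. The other named increases in Ser2 were MRPL52 (0.59), MRPL17 (0.57), MRPL12 (0.57), MRPL49 (0.56) and MRPL57 (0.54). All 8 of these encode large-subunit proteins. Of the MRPL genes 18 of 39 were called higher and 4 lower, and MRPS genes were called higher in 5 of 20 and lower in 5 of 20. The median change was nevertheless alike, 0.165 for MRPL and 0.166 for MRPS genes (log2). MRPL genes were also shorter, with a median span of 8.26 kb against 14.3 kb, and the part of span in these counts was not tested. Bacterial-type members were called higher in 13 of 34 and mitochondria-specific ones in 10 of 25.

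The decreases in Ser2 at 19 h were led by MRPS9, for a bacterial-type small-subunit protein (chromosome 2, 105037983 to 105099960, plus strand). Its scaled Ser2 level was 0.539 RPM per kb at 14 h, then 0.519, 0.283 and 0.436 at 16, 19 and 22 h with ATRi and 0.539, 0.262 and 0.440 with DMSO. The 19 h libraries were the lowest of the 7, with a change of -0.95 ± 0.09 (log2, limma adjusted p = 2.38e-09), and the level at 22 h was 0.68 ± 0.09 above that at 19 h. Before scaling, the Ser2 levels of MRPS9 at these hours were 0.380, 0.371 and 0.383 RPM per kb with ATRi and 0.370, 0.328 and 0.342 with DMSO. Its fall is therefore mostly one relative to the median gene, and MRPS9 is among the members with the least RNAPII per kb. MRPL48 had 0.524, 0.295 and 0.454 RPM per kb in Ser2 with ATRi and 0.548, 0.310 and 0.528 with DMSO. It fell by 0.83 ± 0.09 at 19 h and stood 0.69 ± 0.09 higher at 22 h than at 19 h. MRPS31 (-0.74), MRPL35 (-0.63), MRPL1 (-0.44), MRPS30 (-0.38), MRPL22 (-0.30) and MRPS35 (-0.23) also fell at 19 h. Without centring, each of these 6 and MRPL48 had a change above 0, and with the density trend removed MRPL1 and MRPL22 did too. MRPS30 sits in the large subunit despite its name. Of these, MRPS31, MRPL35 and MRPL1 rose again at 22 h (0.44, 0.50 and 0.27), as did MRPS28 (0.21). These rises are relative to the median gene: on the deposited scale the 22 h values were -0.19, -0.13 and -0.37 for MRPS31, MRPL35 and MRPL1 and -0.42 for MRPS28. With the density trend removed MRPL1 (-0.0455) and MRPS28 (-0.0224) also turned negative. MRPL48 was then the only member still called higher, where 824 of 11989 genes were.

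At 22 h the largest decreases from 19 h in Ser2 were those of MRPL44 (-0.57), MRPL49 (-0.52), MRPL20 (-0.50), MRPL27 (-0.49), MRPS14 (-0.41), MRPL51 (-0.41), MRPL12 (-0.39) and MRPS26 (-0.38). With the density trend removed 2 members were called lower at 22 h in Ser2, MRPL44 (-0.34) and MRPL23 (-0.90), where 1201 of 11989 genes were. The other 7 named decreases therefore lost their call. DESeq2 called 5 members lower at 22 h, MRPL20, MRPL27, MRPL44, MRPL49 and MRPS14, where 1625 of 11989 genes were. The 19 h libraries enter both hourly comparisons, so the opposite signs are not independent of each other.

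The direction at 19 h went with the density of RNAPII on the gene and with its span. Across the 59 members the Ser2 change at 19 h had a Spearman rho of 0.83 with mean Ser2 RPM per kb and -0.65 with gene span, and across 11989 genes 0.86 and -0.41. These points share the same libraries, so no p is given. The Ser2 libraries of 19 h also enter the mean Ser2 RPM per kb, so part of that rho is built in. With mean total RPM per kb the rho was 0.81 across members and 0.84 across all genes. Of 28 members under 10 kb, 17 were called higher and 0 lower, and of 31 members of 10 kb or more 6 were called higher and 9 lower. Among all genes under 10 kb 51.5% were called higher and 9.64% lower, and among longer genes 31.1% and 37.3%. Cytosolic ribosomal protein genes, which are short and dense, were called higher in 68 of 69. Once the trend of each library with read density was removed, 1 member was called higher (MRPL23, 1.38 in log2) and 5 lower (MRPL10, MRPL16, MRPL18, MRPL35 and MRPL48). Of 11989 genes 1851 were then called higher and 1350 lower. MRPL35 (-0.34) and MRPL48 (-0.20) were the only members called with and without that trend at 19 h in Ser2. MRPL23, the least dense member, had an untrended change of 0.22 ± 0.11 that did not pass (limma adjusted p = 0.0685).

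MRPL44 and MRPL52 were the members called in total RNAPII. MRPL44 (chromosome 2, 223957404 to 223967714, plus strand) encodes a large-subunit protein with the fold of ribonuclease III. Its scaled total RNAPII level was 0.846 RPM per kb at 14 h, then 0.702, 1.08 and 0.672 at 16, 19 and 22 h with ATRi and 0.719, 1.31 and 0.711 with DMSO. Both 19 h libraries exceeded the other 5, by 0.69 ± 0.15 over 16 h (log2, limma adjusted p = 0.0269), and 22 h was lower than 19 h by -0.72 ± 0.15 (adjusted p = 0.0286). In Ser2 it had 0.868, 1.09 and 0.824 RPM per kb with ATRi and 0.861, 1.45 and 0.804 with DMSO, with changes of 0.48 and -0.57. MRPL52 (chromosome 14, 22829879 to 22835037, plus strand), for a mitochondria-specific large-subunit protein, had total RNAPII levels of 0.929 RPM per kb at 14 h, 1.08, 1.75 and 1.28 with ATRi and 0.954, 1.85 and 1.30 with DMSO. The 19 h libraries were again the highest, with a change of 0.76 ± 0.15 (limma adjusted p = 0.0239). edgeR and DESeq2 called the same 2 members, and both stayed called with the density trend removed (0.52 each), but at 19 h neither was called when any 1 of the 4 libraries was left out. The decrease of MRPL44 at 22 h lost its call without the DMSO library of 19 h (-0.62, limma adjusted p = 0.386) and kept it without each of the other 3.

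Some leading members lie close to a gene with a larger change at 19 h and others do not, looked at after the values were seen. METTL25B, 343 bp from MRPL24, changed by 0.83 in Ser2, against 0.75 for MRPL24, and HDGF, 517 bp away on the other side, by 0.23. Further off, ISG20L2 (8504 bp) and PRCC (9020 bp) changed by 0.54 and 0.03. NCAPD2, which overlaps MRPL51, changed by 0.47, against 0.69 for MRPL51. COA4, 7534 bp from MRPL48, rose by 0.40 while MRPL48 changed by -0.83. How often genes in general have such neighbours was not counted. FAU and ZNHIT2 changed by 0.76 and 0.92 in Ser2 at 19 h, against 0.56 for MRPL49, with which FAU overlaps and from which ZNHIT2 lies 4475 bp away. SERPINE2, a secreted protease inhibitor gene read from the opposite strand, ends 7398 bp beyond MRPL44. It changed by 0.95 at 19 h and -1.24 at 22 h in total RNAPII (log2), and by 0.95 and -1.11 in Ser2. The ATRi library of 19 h was below the DMSO library for both genes in total RNAPII, 1.08 against 1.31 RPM per kb for MRPL44 and 1.31 against 1.70 for SERPINE2. MMP14, for a membrane-bound matrix metalloproteinase, starts 1520 bp beyond MRPL52 on the same strand. In total RNAPII MRPL52 had 1.59 RPM per kb, against 5.70 for MMP14. The neighbour changed by 0.92 at 19 h in total RNAPII and by 1.24 in Ser2. The part of these neighbours in the values of the members was not tested.

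**Figure D4:**
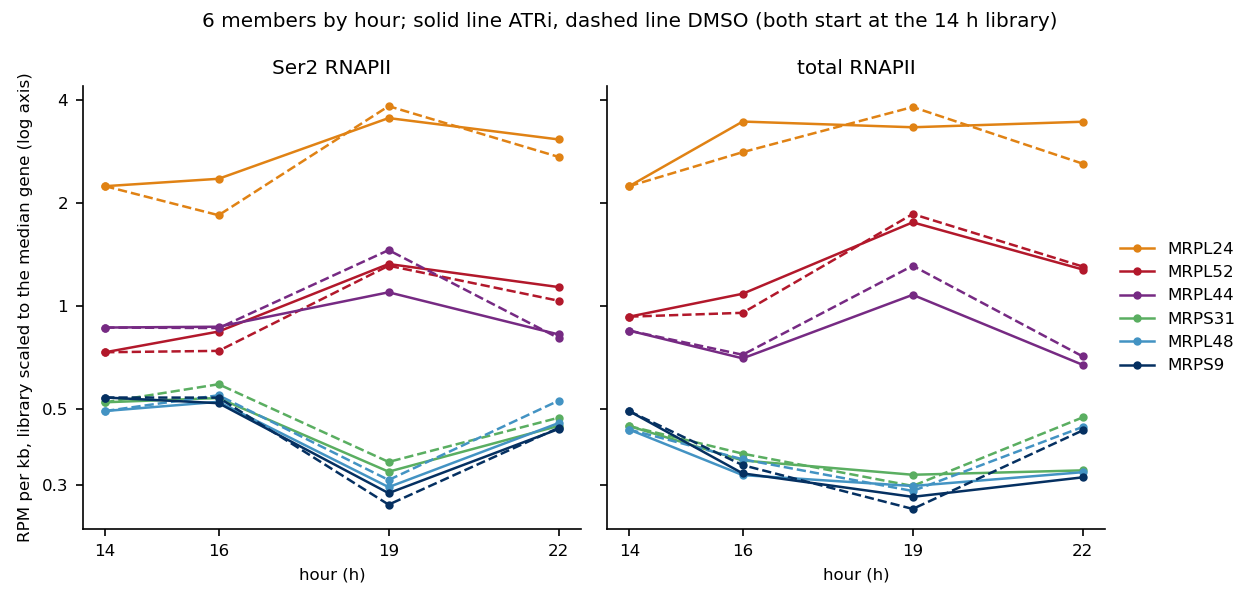
RPM per kb scaled to the median gene of each library (log axis) against hour for 6 members, in Ser2 (left) and total RNAPII (right); solid lines join ATRi libraries and dashed lines DMSO libraries, and both begin at the 14 h library. MRPL24, MRPL52 and MRPL44 peak at 19 h in Ser2 while MRPS31, MRPL48 and MRPS9 have their lowest Ser2 values there, for MRPS9 0.283 with ATRi and 0.262 with DMSO.

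Other genes of mitochondrial translation were followed beside the members. Of all genes 35.4% were called higher and 31.4% lower in Ser2 at 19 h, and of genes under 10 kb 51.5% and 9.64%. The part of span in the counts of these lists was not tested. Of 6 ribosomal subunits outside the MRP naming, 3 were higher in Ser2 at 19 h (GADD45GIP1 0.69, AURKAIP1 0.57 and PTCD3 0.34) and 0 lower. Of 14 measured translation factors 7 were higher and 0 lower, among them TUFM, the mitochondrial elongation factor Tu (0.55), and MTO1, a tRNA-modifying enzyme (0.51). Of 14 mitochondrial aminoacyl-tRNA synthetases 2 were higher and 4 lower, with NARS2 (-1.03), FARS2 (-0.97) and WARS2 (-0.83) lowest. Of 27 assembly and rRNA factors 9 were higher and 6 lower, such as GRSF1, an RNA granule protein (0.51), and METTL15, an rRNA methyltransferase (-0.72). Among 11 regulators, 3 were higher and 3 lower, with changes of -0.20 for NRF1, -0.25 for GABPA and 0.38 for PPRC1, a coactivator. In total RNAPII TUFM alone of these lists was called at 19 h (0.68, limma adjusted p = 0.0389), where 3.75% of all genes were called higher. In the ATRi comparisons 0 genes of these lists were called by limma with either antibody, as for all genes.

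The comparison of Ser2 with total RNAPII asked how much of the polymerase on each member carried the elongation mark, over 7 pairs of libraries of the same hour and treatment. Relative to the median gene 27 of 59 members were lower in Ser2 and 11 higher (limma), where 24.5% of all genes were called lower and 30.1% higher. The median member was at -0.11 relative to the median gene on the log2 scale. Without centring, where the median gene was at -0.36, 0 members were higher and 55 lower. Of 12000 genes 455 were then higher and 9445 lower. MRPL genes were called lower in 20 of 39 and MRPS genes in 7 of 20, with medians of -0.17 and -0.05 relative to the median gene. MRPL genes had the shorter median span (8.26 kb against 14.3 kb), and its part in this was not tested. The antibodies differ, so a ratio shows the order of genes and not an absolute share of marked polymerase.

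MRPL51 had the lowest Ser2 level relative to total RNAPII. Scaled Ser2 levels were 5.09 RPM per kb at 14 h, 4.26, 7.63 and 5.21 at 16, 19 and 22 h with ATRi and 4.30, 6.99 and 5.50 with DMSO. Total RNAPII levels were 8.03, then 8.53, 9.80 and 10.5 with ATRi and 9.15, 10.7 and 7.56 with DMSO. In every pair the Ser2 value was the lower, and the difference was -0.70 ± 0.08 (log2, moderated SE, n = 7 pairs, limma adjusted p = 0.000141). MRPS7, for a bacterial-type protein of the small-subunit head, had Ser2 levels of 0.931 at 14 h, 1.04, 1.56 and 1.35 with ATRi and 1.39, 1.53 and 1.21 with DMSO. Its total RNAPII levels were 1.84 at 14 h, 1.93, 2.39 and 2.57 with ATRi and 1.84, 2.58 and 1.93 RPM per kb with DMSO. No Ser2 library reached the lowest total library, with a difference of -0.67 ± 0.07 in 7 of 7 pairs. MRPS16 (-0.54), MRPS2 (-0.53), MRPL40 (-0.52), MRPL57 (-0.52), MRPL2 (-0.48) and MRPL38 (-0.42) followed, each lower in 7 of 7 pairs. MRPS2, MRPL57 and MRPL38 shared none of their span with another row, and MRPL2 and MRPL40 shared all of it.

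Among the members higher in Ser2, MRPL48 stood 0.34 ± 0.08 above the median gene (6 of 7 pairs), MRPS31 0.32 (6 of 7), MRPS9 0.29 (7 of 7) and MRPS23 0.25 (7 of 7). MRPL1 had 0.23, MRPS28 0.21, MRPL44 0.19 and MRPL42 0.17. Without centring all 8 were below 0. MRPL48, MRPS31 and MRPS9 are among the members with the least RNAPII per kb. Averaged over 7 libraries without scaling, MRPL48 had 0.386 RPM per kb in Ser2 and 0.396 in total RNAPII. MRPS31 had 0.400 and 0.416, and MRPS9 0.367 and 0.387. Their rank is relative to the median gene, and does not show more Ser2 than total RNAPII. Apart from the density trend below, the part of low signal in it was not tested. MRPS23 had scaled Ser2 levels of 0.706 at 14 h, 0.806, 0.732 and 0.713 with ATRi and 0.790, 0.754 and 0.731 with DMSO. Its total RNAPII levels were 0.684 at 14 h, 0.566, 0.665 and 0.679 with ATRi and 0.625, 0.595 and 0.601 RPM per kb with DMSO, so the antibodies did not overlap.

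The order followed gene span. Of the 28 members under 10 kb, 0 were called higher and 23 lower in Ser2, and of the 31 longer ones 11 were called higher and 4 lower. Of all genes under 10 kb, 5.61% were called higher and 57.9% lower, and of longer genes 36.7% and 15.5%. Across the 59 members the Ser2 to total difference had a Spearman rho of 0.81 with span and -0.87 with total RPM per kb, and across 12000 genes 0.67 and -0.88, as a description. The same total libraries enter both the difference and the total RPM per kb, so part of the negative rho is built in. With the trend on gene length removed, 11 members were called higher and 12 lower, of which 8 and 11 were called with the trend in place. Of 12000 genes 2647 were called higher and 2221 lower with that trend removed. MRPL51 (-0.44), MRPS7 (-0.43), MRPS16 (-0.29), MRPS2 (-0.29), MRPL40 (-0.28), MRPL57 (-0.26), MRPL2 (-0.25) and MRPL38 (-0.20) remained lower for their length. MRPS23 (0.37), MRPL44 (0.37), MRPS31 (0.28), MRPL48 (0.21) and MRPS9 (0.20) remained higher. With the trend on read density removed instead, 7 members were called higher and 12 lower, where 1867 and 1971 of 12000 genes were. MRPS31, MRPL48 and MRPS9 were then not called, with MRPS9 at -0.0189, while MRPS23 (0.23) and MRPL44 (0.28) still were. MRPS15, for a bacterial-type small-subunit protein, was called higher with either trend removed (0.31 for length and 0.25 for density) and not without.

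**Figure D5:**
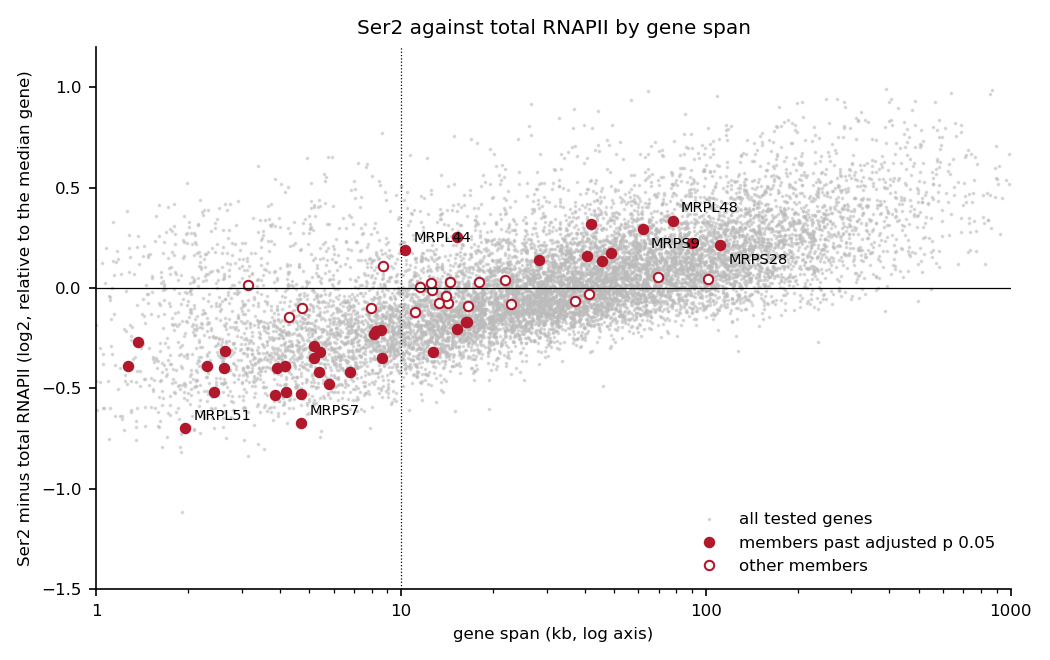
Ser2 minus total RNAPII (log2, relative to the median gene) against gene span in kb (log axis) for the 59 members (red, filled where past the adjusted p threshold of 0.05) and for all tested genes (grey); the dotted line is at 10 kb, and 156 of 12000 genes lie outside the axes. Members under 10 kb lie below 0, except 2, with MRPL51 at -0.70 and MRPS7 at -0.67 lowest, and MRPL48 (0.34) and MRPS9 (0.29) lie above it.

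MRPL46 and MRPS11, which are read outward from the same region 34 bp apart, gave a pair with the same promoter and different products. MRPL46, for a mitochondria-specific large-subunit protein, had 0.663 RPM per kb in Ser2 and 0.940 in total RNAPII, and MRPS11, for a bacterial-type small-subunit protein, 0.809 and 1.11. MRPS11 was higher in Ser2 at 19 h than at 16 h (0.26 ± 0.11, limma adjusted p = 0.0356), whereas MRPL46 had -0.20 ± 0.14 (adjusted p = 0.195). The difference between the pair was not tested. Ser2 minus total RNAPII was -0.10 for MRPL46 and -0.08 for MRPS11, both short of the threshold.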

How the data were processed

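RNAPII was measured by ChIP-seq in 14 libraries of BJ hTERT cells, grouped by antibody, treatment and hour as the labels give them. The authors deposited 1 table of RPM per gene span, not divided by length. Per the submitters' processing notes, Bowtie2 2.3.3.1, SAMtools 1.4 and hg38 were used, and the counting tool is not given in the sources used here. Whole reads were recovered from the steps of the RPM values (100.0% within 0.01 reads).

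Ensembl rows were named by position against RefSeq GRCh38.p14 (best mutual overlap, Jaccard index of at least 0.8, or 0.5 with an end within 100 bp), which named 10739 genes (86.4%). R 4.3.3 with limma 3.58.1 fitted log2(RPM + 0.5), two-sided and with an intensity trend in eBayes, after centring each library on its median tested gene. Nuclear genes averaging 1 RPM or more entered, with Benjamini-Hochberg adjustment over all of them at 0.05. ATRi was tested with hour as a block, hours with treatment as a term, and antibodies with the pair as a block. With no replicates, p-values measure only the spread between these libraries, which may be technical. edgeR 4.0.16 and DESeq2 1.42.0 were run on the recovered reads. The fits were tested on simulated data.

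The members and lists, the 10 kb split and the neighbours looked at were chosen with earlier results of these data known. Named genes are the members past the threshold (at most 8 in each direction), otherwise the 4 highest and 4 lowest of 1 sign at all hours, and genes named by role. MRPL23, MRPL46, MRPS11, MRPS15 and the increases and decreases under removed trends were picked after their values were seen. RPM per kb are levels over the span of the row; counting error alone is covered by read depth.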

Additional observations from a re-analysis of the deposited data

How the results depend on the processing

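The 0 members called with ATRi stayed at 0 under every alternative run for Ser2, total RNAPII and their difference; DESeq2 gave no adjusted p for any member in Ser2 and is not counted there. At an unadjusted p below 0.05 the deposited scale listed 12 members higher and 0 lower in Ser2, where 2630 and 25 of 11989 genes were. On the deposited scale the median gene moved by 0.18 and 0.10 with ATRi in total and Ser2, by 0.54 and -0.62 at 19 and 22 h in total, by 0.90 and -0.68 in Ser2 and by -0.36 between Ser2 and total (log2). On that scale 22 members were higher at 19 h and 44 lower at 22 h in total, where 4791 and 6812 of 12031 genes were. In Ser2 55 were higher and 0 lower at 19 h, and 0 higher and 55 lower at 22 h. Of 11989 genes 10294 were higher at 19 h and 10104 lower at 22 h in Ser2. In Ser2 against total 0 members were higher and 55 lower, where 455 and 9445 of 12000 genes were. Single genes then changed sign: with ATRi in total MRPL44 (0.034), MRPL58 (0.0388), MRPL14 (0.11) and MRPL39 (0.14), and in Ser2 MRPL1 (0.0025) and MRPS31 (0.0080). At 19 h in Ser2 these were MRPL48 (0.0276), MRPS31 (0.12), MRPL35 (0.23), MRPL1 (0.41), MRPS30 (0.47), MRPL22 (0.55) and MRPS35 (0.62), and at 22 h MRPL35 (-0.13), MRPS31 (-0.19), MRPL1 (-0.37) and MRPS28 (-0.42). In Ser2 against total they were MRPL48 (-0.0328), MRPS31 (-0.0518), MRPS9 (-0.0747), MRPS23 (-0.12), MRPL1 (-0.14), MRPS28 (-0.16), MRPL44 (-0.18) and MRPL42 (-0.19). With the density trend removed, 1 member was lower at 19 h and 2 lower at 22 h in total, where 1132 and 689 of 12031 genes were. In Ser2 1 was higher and 5 lower at 19 h, where 1851 and 1350 of 11989 genes were. At 22 h 1 was higher and 2 lower in Ser2, where 824 and 1201 genes were. In Ser2 against total 7 were higher and 12 lower, where 1867 and 1971 of 12000 genes were. The member median was then -0.0107 at 22 h in total, and -0.037 at 19 h and 0.0353 at 22 h in Ser2. MRPL57 (-0.0466), MRPL1 (0.0054) and MRPL22 (0.0524) changed sign at 19 h, MRPL1 (-0.0455) and MRPS28 (-0.0224) at 22 h, and MRPS9 (-0.0189) in Ser2 against total. The length trend removed left 12 members lower, where 2221 of 12000 genes were, and a member median of -0.0102. DESeq2 called 14 members higher at 19 h and 5 lower at 22 h in Ser2, where 2972 and 1625 of 11989 genes were. A looser naming, chosen after seeing the data, added 8 genes and gave 10 higher at 22 h in Ser2. Leaving out 1 library at a time gave 0 to 0 members higher at 19 h in total, and 0 to 6 higher and 0 to 21 lower at 22 h. The 6 and 21 are without the ATRi library of 22 h, where 2596 and 2911 of 12028 genes were called. In Ser2 leaving out 1 library gave 5 to 9 members lower at 19 h, 3 to 5 higher and 5 to 10 lower at 22 h. Member medians were 0.12 to 0.18 at 19 h and -0.15 to -0.0731 at 22 h. Where a value changed, the cause was not tested. With 1 library per group, 4 libraries behind an hourly change and no spike-in used here, a shift shared by all genes cannot be read, and rows shared with another gene cannot be assigned.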
